A study of Mus musculus with 69 samples.

Results

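This comparison set the hearts of mice that had breathed hydrogen cyanide (HCN) against hearts of air-breathing mice, both collected 24 h after exposure. Its members were the arrays that the titles place in those groups, 4 with HCN and 4 with air, which is 8 of the 69 arrays of the series. All were from adult male CD-1 mice of 20 to 35 g, an outbred stock, which were awake and breathed 327 ppm HCN or air through the nose only. The length of the exposure is not given in the sources used here. Further groups served for comparison. They were HCN and air at 1, 2 and 4 h (4 arrays each). At 24 h they were mice given 8 mg/kg potassium cyanide (KCN) or saline under the skin (4 arrays each). The labels call the arrays biological replicates and say no more, so p-values measure the spread among these arrays. Of 45141 probe sets on the array, 26773 had a group mean above the background level used here and were tested, which covered 12436 genes.

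Cyanide blocks cytochrome c oxidase, where the respiratory chain passes its electrons to oxygen, and so keeps cells from using oxygen. The heart depends on mitochondrial respiration for contraction and has little reserve. Cyanide is removed mainly by sulfurtransferases, which add sulfur to make thiocyanate, and by binding to cobalamin.

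The angiotensin precursor Agt and the acute-phase protein Lcn2 were among the largest rises, and Gja5, a gap junction protein of the atria and the conduction system, was among the largest falls. Their promoters, the 250 bases before each gene's start in RefSeq (GRCm38.p6), are shown because the arrays of the groups do not overlap for these genes and each is described below at further times. Capitals mark TATAAA, the TATA box, and AGAACA, a half-site of the glucocorticoid receptor, searched on both strands. The Agt sequence is chr8:124569707-124569956 on the minus strand, that of Lcn2 is chr2:32387740-32387989 on the minus strand, and that of Gja5 is chr3:97032152-97032401 on the plus strand.
Agt: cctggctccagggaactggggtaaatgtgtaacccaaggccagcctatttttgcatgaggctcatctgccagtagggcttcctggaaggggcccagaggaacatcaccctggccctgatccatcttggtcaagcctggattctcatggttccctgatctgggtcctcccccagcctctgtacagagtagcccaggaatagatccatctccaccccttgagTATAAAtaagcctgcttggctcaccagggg
Lcn2: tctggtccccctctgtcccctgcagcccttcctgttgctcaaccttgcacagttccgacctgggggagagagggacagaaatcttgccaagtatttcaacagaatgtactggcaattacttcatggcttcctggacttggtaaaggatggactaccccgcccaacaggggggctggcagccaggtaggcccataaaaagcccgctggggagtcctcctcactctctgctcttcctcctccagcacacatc
Gja5: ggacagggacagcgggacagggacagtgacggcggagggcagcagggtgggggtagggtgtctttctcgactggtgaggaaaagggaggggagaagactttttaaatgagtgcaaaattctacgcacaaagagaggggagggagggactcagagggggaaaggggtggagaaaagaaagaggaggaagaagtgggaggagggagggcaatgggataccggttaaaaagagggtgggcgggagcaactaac
The Agt window held 1 TATAAA, beginning 30 bases before the start, and no AGAACA, and the other windows held neither. TATAAA was present in 12.4% and AGAACA in 16.1% of the 32851 promoter windows of this length. The GC content was 55.6% for Agt and 56.4% for both others.

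After HCN, 3834 probe sets differed from air at 24 h (14.3% of those tested, limma, adjusted p under 0.05), of which 1360 (5.08%) were higher and 2474 (9.24%) were lower. The median change over all tested probe sets was 0.04 on the log2 scale. Of the called probe sets, 1874 passed 1.5-fold, and of these 213 were higher and 1661 lower. With each gene read from its brightest probe set, with p-values still adjusted over all probe sets, 1270 genes were called (10.2%), 715 higher (5.75%) and 555 lower (4.46%). A refit on the mean of each gene's probe sets, adjusted over the 12436 genes, called 1203 genes (9.67%), 400 higher (3.22%) and 803 lower (6.46%). The arrays of the groups did not overlap for 5376 probe sets (20.1%). A limma fit on only the 2 groups compared called 3790 probe sets. Leaving out 1 array gave from 2533 calls (without HCN replicate 2) to 4789 (without HCN replicate 4), and 1964 probe sets were called whichever array was left out.

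RNA quality differed between the groups. The actin 3'/5' ratio, taken as log2 between control probe sets at either end of the transcript, is higher where RNA is broken or copied short of its 5' end. It was 1.25, 0.96, 1.06 and 0.64 in HCN replicates 1 to 4 and 0.41, 0.40, 0.41 and 0.32 in the air replicates. Every HCN array lay above every air array (0.979 ± 0.255 against 0.386 ± 0.0447, SD, n = 4 each; two-sided exact permutation p = 0.0286, 0.0286 after adjustment over 3 measures, the smallest p that 4 against 4 allow). The Gapdh ratio was likewise higher, 0.194 ± 0.0844 against -0.0291 ± 0.0473, and the 18S rRNA signal was lower, 12.6 ± 0.0672 against 12.9 ± 0.13 (n = 4 each; exact permutation p = 0.0286 for each). The other 12 air arrays had actin ratios of 0.317 to 0.652. With the actin ratio as a covariate, 733 probe sets were called (2.74%), 156 higher and 577 lower, of which 693 were among the 3834 calls in the same direction; of genes read by the brightest probe set, 1.22% were called. Since all HCN arrays had the higher ratio, this covariate and the exposure cannot be fully told apart. For the genes that matter most below, the result of that fit is given beside the call.

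**Figure D1:**
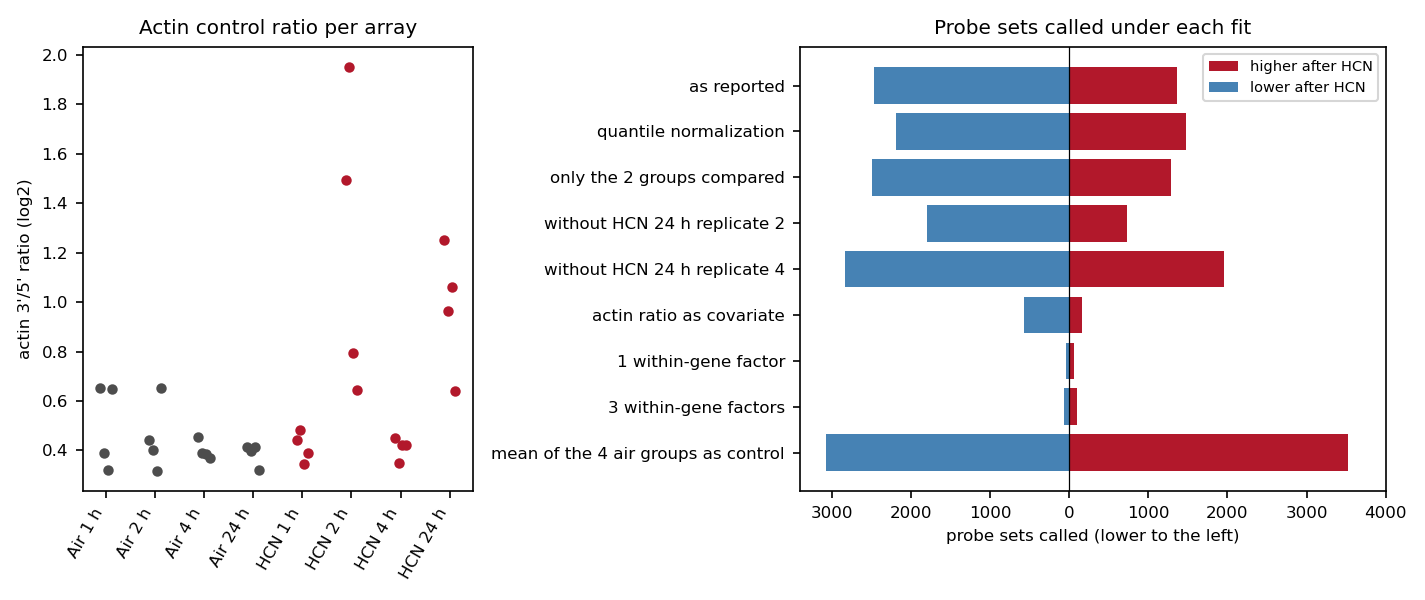
Left, the log2 actin 3'/5' ratio of each array (points) in the air and HCN groups; right, the number of probe sets called higher (to the right) or lower (to the left) after HCN at 24 h in 9 fits. The HCN arrays at 24 h lie at 0.64 to 1.25, above the air arrays at 24 h, and the count of calls goes from 3834 to 733 with the ratio as a covariate and to 99 with 1 within-gene factor.

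Because shortened RNA affects probes by their distance from the 3' end, the probe sets of each gene were compared with each other. Among 4881 genes with at least 2 tested probe sets, 1909 had at least 1 call. All probe sets were called in the same direction in 62 of these genes, 25 higher and 37 lower; without HCN replicate 2 there were 25 such genes and without HCN replicate 4 there were 78, and 31 to 40 without HCN replicates 1 or 3 or air replicates 1, 3 or 4. In 187 genes probe sets were called in opposite directions, in 1210 only some were called and these were lower, and in 450 only some were called and these were higher. The fit was repeated with 1 to 3 factors that hold the shared deviations of probe sets from their gene's mean. It then called 99, 124 and 160 probe sets, with 60.6%, 63.7% and 61.2% of them higher, against 35.5% in the original fit and 21.3% with the actin covariate. A probe set is said below to be called in every fit where it passed as reported, without each of the 8 arrays in turn, with the actin covariate and with 1, 2 and 3 within-gene factors.

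Agt, the precursor of the angiotensin peptides, was 6.76, 6.74, 7.34 and 7.12 (log2 signal) in HCN replicates 1 to 4 and 5.26, 5.64, 5.09 and 5.40 in air. The groups did not overlap, and each was narrow next to the distance between them. Agt rose by 1.64 ± 0.32 (SE; 3.12-fold; adjusted p = 0.000132) and remained called whichever of the 8 arrays was left out. It was also called with the actin covariate (1.84, adjusted p = 0.0013) and with 1 within-gene factor (2.12, adjusted p = 0.021).

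Lcn2, a secreted protein that binds bacterial siderophores and is induced in inflammation, was 6.84, 6.44, 7.28 and 5.60 after HCN and 3.82, 5.10, 4.69 and 4.92 in air. All HCN arrays were above all air arrays, with HCN replicate 4 nearest to them. Lcn2 rose by 1.91 ± 0.32 (SE; 3.75-fold; adjusted p = 1.69e-05), called whichever of the 8 arrays was left out and with the actin covariate (1.53, adjusted p = 0.0095). With 1 within-gene factor its change was 1.17 (adjusted p = 0.31).

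Pnmt, the enzyme that makes adrenaline from noradrenaline, was 5.34, 4.11, 5.56 and 4.05 after HCN and 3.55, 3.25, 3.54 and 3.32 in air. The air arrays were close together, and the HCN arrays formed a high pair (replicates 1 and 3) and a lower pair. Pnmt rose by 1.35 ± 0.22 (SE; 2.55-fold; adjusted p = 1.15e-05), and was called with the actin covariate (adjusted p = 0.0023) but not with 1 within-gene factor (1.26, adjusted p = 0.068).

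Apol11b, a member of the apolipoprotein L family, rose on both of its probe sets. The first was 3.49, 3.61, 3.72 and 3.03 after HCN and 2.39, 3.02, 2.37 and 2.60 in air, and the second 3.92, 3.22, 4.08 and 2.65 against 2.30, 2.61, 2.40 and 2.47. HCN replicate 4 was the lowest exposed array on both, and only just above the highest air array. Of all groups, only HCN at 24 h had a mean above the background level of 3.23 on these probe sets, so the filter let them in through the group where they are high. With no filter on low values the changes were 0.87 and 1.02 (adjusted p = 1.46e-05 and 9.82e-06), between an air level below background and an HCN level just above it. In the limma fit on only the 2 groups compared, adjusted p was 0.011 and 0.031. Probes for 1 member of this family may bind others.

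Among other rises, Fhl1, a LIM-domain protein of the cardiac sarcomere, was 11.65, 11.77, 11.93 and 11.51 after HCN and 11.06, 11.05, 11.12 and 11.14 in air. The groups were far apart next to the spread of the air arrays. The rise of Fhl1 was 0.62 ± 0.12 (SE; 1.54-fold; adjusted p = 8.29e-05; 0.0066 with the actin covariate). Sh3bgrl2 was 5.39, 5.66, 5.61 and 5.88 against 4.20, 4.46, 4.42 and 4.50, a rise of 1.24 (adjusted p = 0.000201; 0.0045 with the actin covariate). Chordc1, a co-chaperone of HSP90, rose by 0.66 on its single probe set (adjusted p = 0.000421; 0.097 with the actin covariate).

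Slc2a3, the glucose transporter GLUT3, rose on both probe sets, by 1.15 ± 0.31 (SE; adjusted p = 0.00607) and 1.04 (adjusted p = 0.00255). The first was 6.37, 6.18, 6.18 and 7.04 after HCN and 4.82, 5.63, 5.05 and 5.68 in air, without overlap. Neither was called with the actin covariate (adjusted p = 0.081 and 0.096). Rises on both probe sets were also found for Sh3glb1, a membrane-bending endophilin (0.52 and 0.50), for the transcription factor Zeb1 (0.40 and 0.58) and for the tubulin Tuba1c (0.99 and 0.57). With the actin covariate, 3 genes in all had every probe set called 1 way, Apol11b and Aqp7 among them. Most of the genes just named thus lost a call there. The calmodulin-binding protein Nrgn rose by 1.15 (adjusted p = 0.0142) and carbonic anhydrase Car2 by 0.83 (adjusted p = 0.0199), each on 1 probe set and not called with the actin covariate (adjusted p = 0.11 and 0.17).

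**Figure D2:**
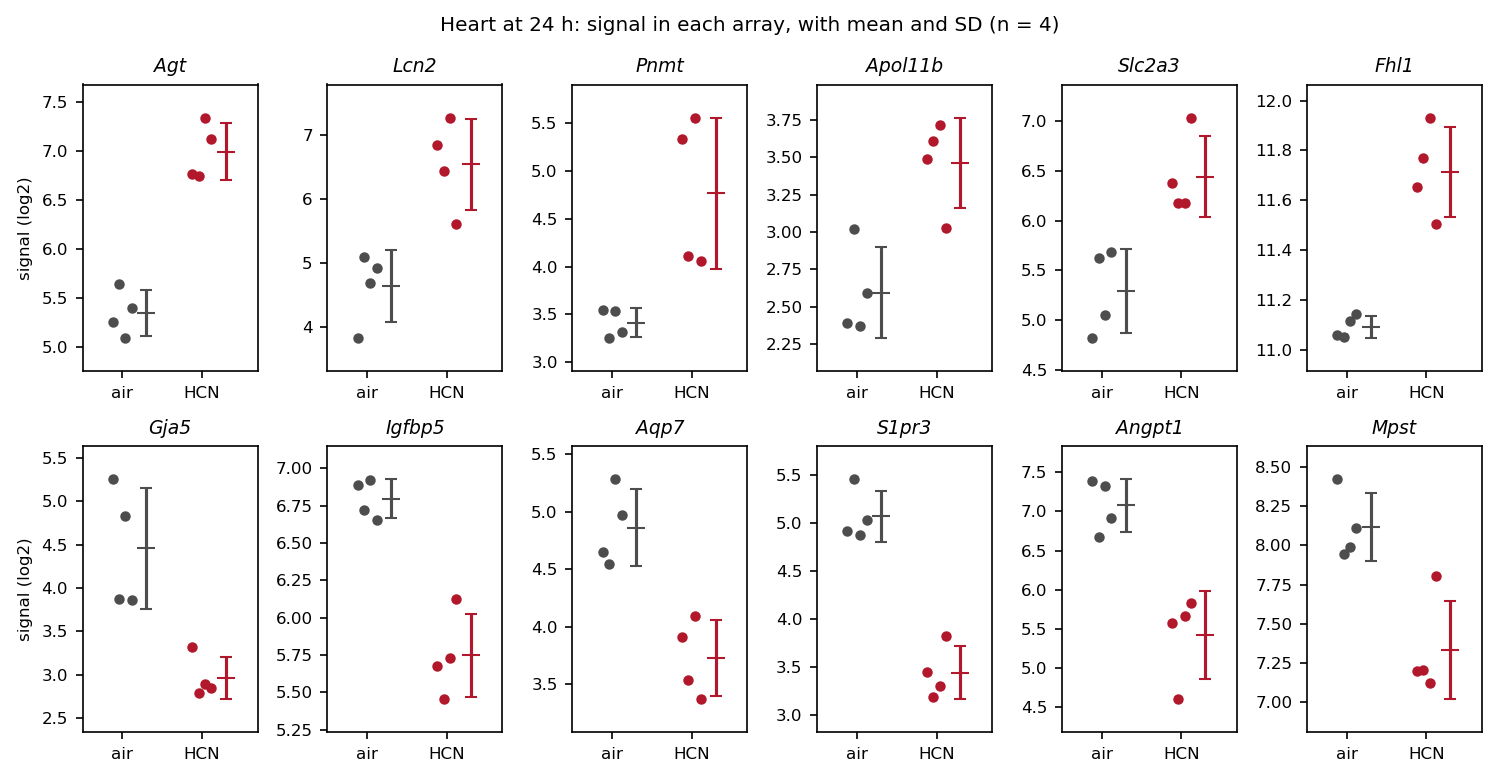
Log2 signal of 12 genes in the air and HCN arrays at 24 h (points, 4 each), with the mean and SD beside them; S1pr3 is shown by its called probe set and the others by the brightest probe set. The HCN arrays lie above all air arrays for Agt, Lcn2, Pnmt, Apol11b, Slc2a3 and Fhl1, and below them for Gja5, Igfbp5, Aqp7, S1pr3, Angpt1 and Mpst.

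Gja5, connexin 40, was 3.32, 2.79, 2.89 and 2.84 after HCN and 5.25, 3.88, 4.83 and 3.86 in air. The HCN arrays were all near or below the background level of 3.23, and the air arrays formed 2 pairs above it. Gja5 fell (adjusted p = 1.9e-06, or 0.0094 in the limma fit on only the 2 groups compared) and was called in every fit. Its measured change was -1.5 ± 0.23 (log2, SE), and since the HCN mean of 2.96 is below the background level this is not an exact fold. Igfbp5, which binds insulin-like growth factors, was 5.68, 5.45, 5.73 and 6.13 after HCN and 6.89, 6.72, 6.92 and 6.65 in air. It fell by 1.05 ± 0.15 (SE; adjusted p = 5.44e-07), also called in every fit. Gja1, the main connexin of ventricular muscle, had a change of 0.02 (adjusted p = 0.95).

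Aqp7, the glycerol channel of heart and fat, fell on both probe sets. One was 4.16, 3.36, 3.27 and 3.28 after HCN and 5.42, 5.18, 6.06 and 5.93 in air (4.39-fold lower; adjusted p = 1.26e-07), and the other was 3.91, 3.53, 4.09 and 3.37 against 4.65, 4.54, 5.29 and 4.98, a change of -1.14. The groups were apart on both, which were called with the actin covariate as well (adjusted p = 0.00017 and 0.0052). Angpt1, the ligand that stabilises vessels through its endothelial receptor Tek, was 5.58, 4.60, 5.67 and 5.84 against 7.39, 6.68, 7.32 and 6.92. It fell by 1.66 ± 0.25 (log2, SE; 3.15-fold lower; adjusted p = 2.47e-06; 0.0065 with the actin covariate), but was not called with 1 within-gene factor (adjusted p = 0.49). S1pr3, a sphingosine-1-phosphate receptor, was 3.45, 3.19, 3.31 and 3.83 against 4.92, 5.46, 4.88 and 5.03 on 1 probe set (adjusted p = 2.3e-09, called in every fit), whereas its second probe set gave a change of -0.50 that was not called.

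Several signalling genes fell on all of their tested probe sets. Changes were -2.68, -0.60 and -1.70 for Gna12, a G-protein alpha subunit, and -1.42 and -0.34 for Akt2, the insulin-responsive kinase. They were -1.0, -0.87 and -0.70 for the phosphatase Ppp5c, and -1.87 and -0.39 for Cavin1, a coat protein of caveolae. Sod3, the extracellular superoxide dismutase, changed by -0.74 and -1.26, the LIM protein Csrp1 by -1.52 and -0.90, and Polr3f, a subunit of RNA polymerase III, by -0.38, -0.82 and -1.01. With the actin covariate the Akt2 probe set of smaller change was not called (adjusted p = 0.45). Neither Sod3 probe set was called there (adjusted p = 0.68 and 0.47). Over all genes, 3 had every probe set called 1 way in that fit, Apol11b and Aqp7 among them. Most genes of this paragraph thus lost at least 1 call there. With 1 within-gene factor 1 Gna12 probe set turned to 0.28, both Csrp1 probe sets to 0.17 and 0.05, and 2 Ppp5c probe sets to 0.40 and 0.13.

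Probe sets of the same gene disagreed for other large falls. Sec61a1, the pore of the endoplasmic reticulum translocon, had changes of -2.75 and -2.65 on 2 probe sets, -0.20 on another and 0.31, not called, on the last. Twsg1, which binds bone morphogenetic proteins, had -1.73, -2.39 and -0.13, and the transcription factor Nfia had -1.23, -0.38, -1.74, -0.25, -0.55 and 0.04. In Dnm1l, the GTPase of mitochondrial fission, 3 probe sets were all called, at 0.25, -0.46 and -2.35, and in Mphosph8, a chromatin silencing protein, at 0.47, 0.46 and -0.42. Dnm1l and Mphosph8, with calls both ways, have no single direction in these data. For Sec61a1, Twsg1 and Nfia the changes differed widely in size, and the only positive ones were 0.31 and 0.04. In all, 32 probe sets were called in every fit, 9 higher and 23 lower, a group picked after its values were seen. It includes Agt, Gja5, Igfbp5 and S1pr3, as well as 1 probe set each of Sec61a1, Twsg1 and Nfia, where other probe sets of the gene differ.

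**Figure D3:**
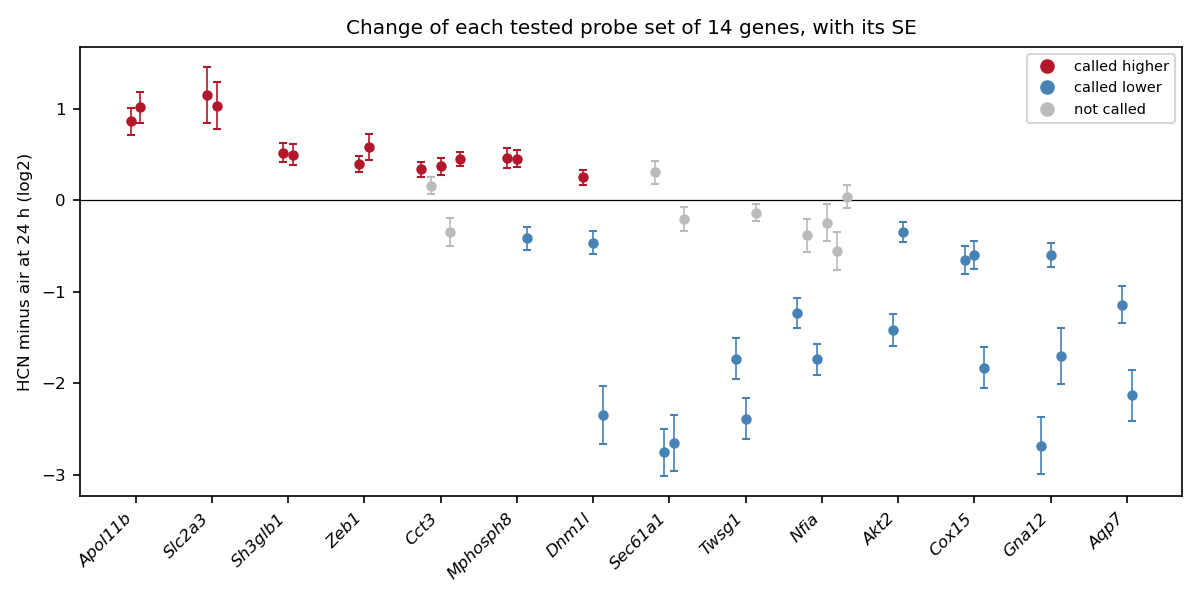
HCN minus air at 24 h (log2, with SE) for each tested probe set of 14 genes, coloured by call. Apol11b, Slc2a3, Sh3glb1 and Zeb1 lie above 0 on every probe set, and Akt2, Cox15, Gna12 and Aqp7 below 0 on every probe set, while those of Dnm1l run from -2.35 to 0.25.

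Genes were next read in lists, by the brightest probe set, beside the 5.75% of all genes that were higher and the 4.46% that were lower. Of 25 tested genes of cytochrome c oxidase, the enzyme that cyanide inhibits, 2 were higher and 1 was lower, a share near that of all genes, with a median change of 0.02 next to 0.07 over all genes. The gene that fell was Cox15, which makes the heme A of the enzyme; its 3 probe sets changed by -0.65, -0.60 and -1.83 (adjusted p = 0.00196 on the brightest, 0.11 with the actin covariate). Cox10, which acts just before Cox15 in heme A synthesis, rose by 0.39 (adjusted p = 0.0458) and the subunit Cox6b1 by 0.11 (adjusted p = 0.0436), both at the edge of the threshold and called in only 1 and 2 of the 8 fits that each leave out 1 array. The subunit Cox4i1 had a change of 0.04 (adjusted p = 0.52).

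Among 15 genes for cyanide and sulfide detoxification, none was higher and 3 were lower. Mpst, which transfers sulfur from mercaptopyruvate and can turn cyanide into thiocyanate, was 7.20, 7.21, 7.13 and 7.80 after HCN and 8.42, 7.95, 7.99 and 8.11 in air. The groups did not overlap, although HCN replicate 4 came close to the air arrays. Mpst fell by 0.78 ± 0.13 (log2, SE; adjusted p = 1.5e-05), with -0.33 (adjusted p = 0.057) under the actin covariate and 0.05 with 1 within-gene factor. Tst, or rhodanese, the classical enzyme of thiocyanate formation, had a change of 0.05 (adjusted p = 0.93). The others that fell were mitochondrial thioredoxin Txn2 (-0.45, 1 of 3 probe sets) and the cobalamin-dependent methionine synthase Mtr (-1.61, 1 of 2 probe sets), and neither was called with the actin covariate (adjusted p = 0.79 and 0.099). Txn2 remained called in 4 of those 8 fits and Mtr in 2, whereas Mpst and Cox15 were called in all 8. At an unadjusted p under 0.05, 1 gene of the list was higher and 3 were lower.

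In other lists of energy metabolism, complex I had 1 higher and 2 lower of 32 genes, complexes II, III and ATP synthase 1 and 2 of 28, and the citric acid cycle 1 and 0 of 17, where the gene that rose was the succinyl-CoA ligase subunit Sucla2 (0.19). Fatty acid oxidation had 2 higher and 3 lower of 25 genes, with Cpt1b, the muscle carnitine palmitoyltransferase, at -0.57, and Ppara, its regulator, at -0.91 on 1 of 3 probe sets. Glycolysis had 1 higher and 4 lower of 18 genes, beside 4.46% lower over all genes. The falls include Pkm (-0.49), Pfkm (-0.44) and Pfkfb2 (-0.65). Pkm and Pfkm were not called with the actin covariate (adjusted p = 0.42 and 0.65). Plin5, which ties lipid droplets to mitochondria, rose by 0.49 on 1 of 2 probe sets. The hypoxia list had 1 higher gene of 21 (the oxygen sensor Egln1, 0.19 on 1 probe set, with the other called lower) and a median of 0.16, which was 0.08 without HCN replicate 3; Vegfa had 0.07 and Slc2a1 0.02, neither called.

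**Figure D4:**
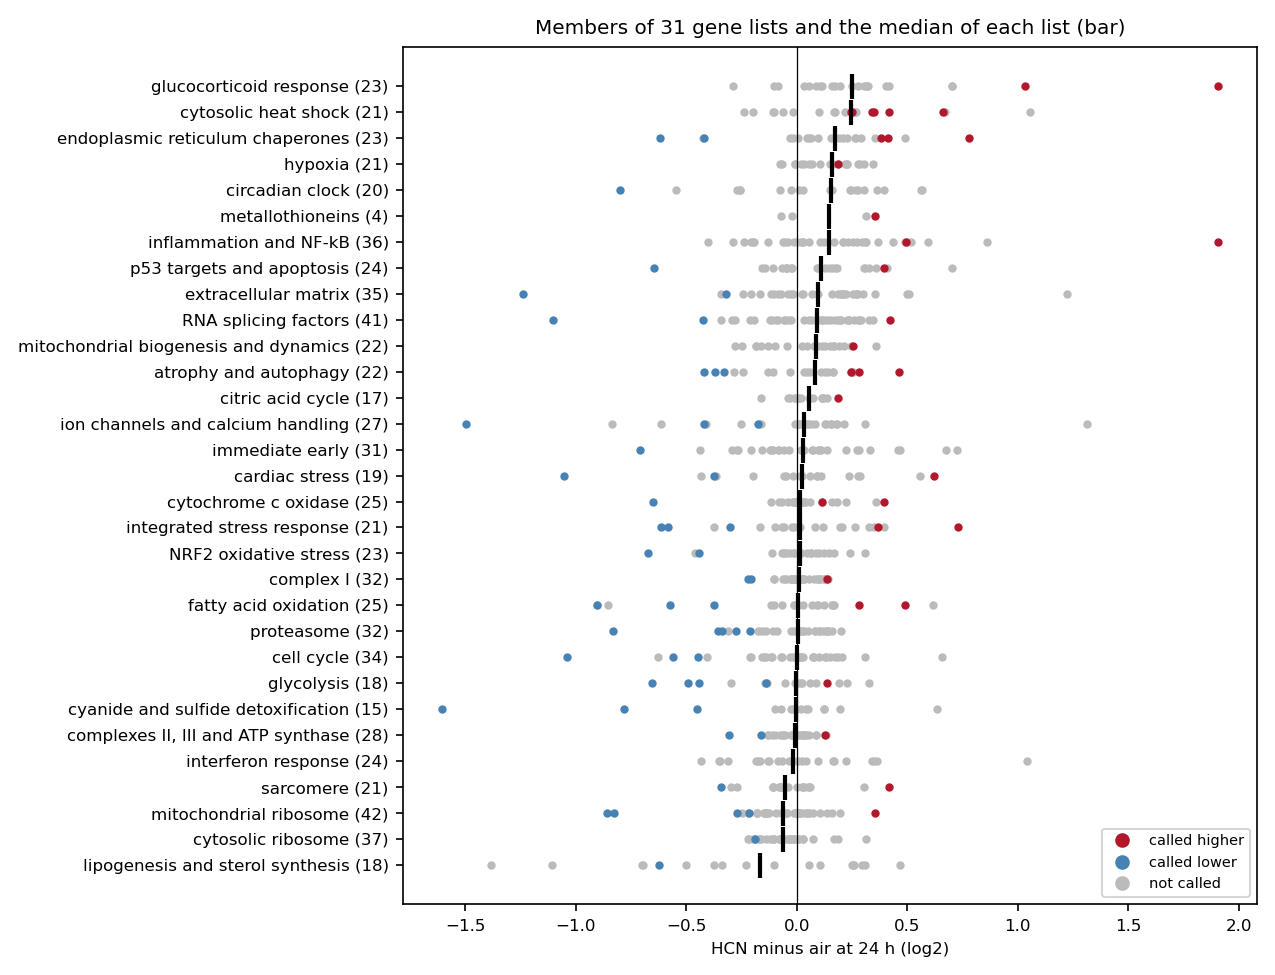
HCN minus air at 24 h (log2) for each tested member (points, by its brightest probe set) of 31 gene lists, with the number tested in brackets and the list's median as a bar; colours mark calls. Most medians lie near 0, the heat shock and glucocorticoid lists have the highest at 0.25 each (0.09 and 0.12 without HCN replicate 3), and lipogenesis the lowest at -0.17 (0.01 without HCN replicate 4).

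Of the cytosolic heat shock list, 6 of 21 genes were higher and none was lower, beside 5.75% and 4.46% of all genes. The median was 0.25, and 0.09 without HCN replicate 3. The chaperonin subunits Cct3 (0.34) and Cct2 (0.25), Dnajb4 (0.41), Hspa8 (0.25), Ahsa1 (0.35) and Chordc1 (0.66) rose. Ahsa1 alone of these was called with the actin covariate on the probe set named (adjusted p = 0.0081). Leaving out 1 array gave 4 to 7 higher genes; Hspa8 was called in 3 of these 8 fits, Ahsa1 in 6 and the others named in all 8. None was lower, also at an unadjusted p under 0.05. Read as the mean of each gene's probe sets, the list had 3 higher and 4 lower genes and a median of 0.12. The inducible Hspa1b had a change of 1.05 ± 0.69 (SE, adjusted p = 0.34).

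Endoplasmic reticulum chaperones were higher for 3 and lower for 2 of 23 genes. The 3 were Sdf2l1 (0.78), the lumenal HSP70 Hspa5 (0.38) and the ERAD adaptor Sel1l (0.41 on 1 of 5 probe sets, with 2 called lower). None of these was called with the actin covariate, and without HCN replicate 2 none was called. In the integrated stress response list 2 of 21 were higher and 3 lower. Its rises were Gars, the glycyl-tRNA synthetase (0.37, also called with the actin covariate, adjusted p = 0.047), and the glutathione-degrading Chac1 (0.73, adjusted p = 0.044, called in 3 of the 8 fits that leave out 1 array). The NRF2 list had none higher (2 at an unadjusted p under 0.05) and 2 lower of 23, the glutathione transferases Gstm1 (-0.44) and Gstm2 (-0.67), near-identical family members whose probes may share signal.

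The glucocorticoid response list had 2 higher genes of 23, Lcn2 and Fam107a, and a median of 0.25, or 0.09 over gene means and 0.12 without HCN replicate 3. Fam107a rose by 1.03 on 1 of 3 probe sets and was called in 5 of the 8 fits that leave out 1 array. The inflammation list had 2 higher of 36, Lcn2 and the oncostatin M receptor Osmr (0.49 on 1 of 2 probe sets, called in only 1 of those 8 fits). Leaving out 1 array gave 1 to 6 higher genes in this list, and 7 had an unadjusted p under 0.05. Neutrophil calprotectin had wide changes that were not called, 1.32 ± 0.53 for S100a8 and 1.27 ± 0.52 for S100a9 (SE, adjusted p = 0.088 and 0.098), and Il6, Il1b and Ccl2 had 0.00, 0.21 and -0.04. Serpina3n, another acute-phase gene, had 0.86 (adjusted p = 0.086). In the interferon list limma called none of 24 either way (2 higher and 2 lower at an unadjusted p under 0.05), and in the immediate early list 1 of 31 was, Klf6, which was lower (-0.71).

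Cardiac stress genes were higher for 1 (Fhl1) and lower for 2 of 19. The falls were the filament protein Nes (-1.05) and Ankrd1 (-0.37), a titin-binding stress protein. The natriuretic peptides had changes of -0.06 (Nppa) and 0.09 (Nppb), neither called. Of 21 sarcomere genes 1 was higher, Flnc (0.42), and 1 lower, Des (-0.34). Ion channels and calcium handling had 3 lower of 27 genes, Gja5, phospholamban (Pln, -0.18) and triadin (Trdn, -0.42). The proteasome had 5 lower of 32, with the lid subunit Psmd7 at -0.83. Leaving out 1 array gave 2 to 5 lower proteasome genes. Ankrd1, Des and Flnc were called in 2, 2 and 5 of those 8 fits.

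Of 42 genes of the mitochondrial ribosome 1 was higher and 4 were lower, and of 37 of the cytosolic ribosome 1 was lower. Atrophy and autophagy had 3 higher and 3 lower of 22, beside 10.2% of all genes called in either direction, splicing factors 1 and 2 of 41, and p53 targets 1 and 1 of 24. Cell cycle genes had 3 lower of 34, the extracellular matrix 2 of 35, the circadian clock 1 of 20 and lipogenesis 1 of 18, with no rise in any of these. Metallothioneins had 1 higher of 4.

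Markers of ventricular muscle gave like levels in both groups. The log2 sum of 10 such markers was 16.38 to 16.41 after HCN and 16.40 to 16.49 in air. Of these, 2 were lower, Ckm (-0.34) and Pln. The log2 sum of 7 skeletal muscle markers was 12.77 to 13.17 after HCN and 13.22 to 13.56 in air, without overlap. Of these 7, 1 was called lower, and their median change was -0.02. The amount of skeletal muscle in the samples was not tested. Atrial markers had 2 lower of 7, with Dkk3 at -1.06, and none higher. Their median was -0.20, and their log2 sum was 14.10 to 14.37 after HCN and 14.19 to 14.61 in air. The amount of atrial tissue in the samples was not tested, also for Gja5. In bulk tissue, fewer cells of a type and less RNA per cell cannot be told apart. Endothelial markers had 2 lower of 12, Pecam1 (-0.94; -0.12 with the actin covariate) and Eng (-0.49), fibroblast markers 1 lower of 9, Tcf21 (-0.75), and macrophage markers 1 higher and 1 lower of 14, Cd163 (0.71) and Csf1r (-0.58). Neutrophil markers (10 genes) and T and B lymphocyte markers (13 genes) gave no call in limma; at an unadjusted p under 0.05, 2 neutrophil markers were higher and no lymphocyte marker differed. Cd163 and Eng were called in 1 and 2 of the 8 fits that leave out 1 array. All 9 platelet markers had positive changes, with a median of 0.52 (0.21 without HCN replicate 4), and 1 was called, the fibrinogen receptor subunit Itgb3 (0.63), though not without HCN replicate 4. Their log2 sum was 9.30 to 10.24 after HCN and 8.97 to 9.46 in air. The 5 erythroid markers had a median of 0.59, which ran from 0.23 (without air replicate 1) to 0.95 (without air replicate 4). Bpgm, which makes bisphosphoglycerate, was called at 1.05, in 3 of the 8 fits that leave out 1 array. The amount of blood in the samples was not tested. Markers of lung and airway, 12 genes, were uneven within the groups, with log2 sums of 10.56 to 14.66 after HCN and 6.71 to 14.21 in air, and none was called, also at an unadjusted p under 0.05. The airway secretory gene Scgb1a1 was 3.10 in air replicate 1 and 8.96 to 12.40 in the other 7 arrays. Without air replicate 1, 2937 probe sets were called, and Agt, Lcn2, Pnmt, Gja5 and Igfbp5 were among them.

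The response at 24 h was then set against that at 4 h after HCN, each relative to its own air group. The changes differed for 3055 probe sets (11.4%), of which 1614 were among the 3834 called at 24 h, which rest on the same 24 h arrays. The actin ratio was 0.348 to 0.449 in the HCN arrays and 0.369 to 0.456 in the air arrays at 4 h, so that within this contrast the HCN arrays at 24 h had the higher ratios. With the ratio as a covariate 982 probe sets differed. The 6 most negative differences were taken among list genes and genes with all probe sets called 1 way. Of these 6 genes, 5 were high at 4 h and not called at 24 h, and Cavin1, described below, was called at 24 h. The stress transcription factor Atf3 had a change of 0.22 at 24 h and differed from 4 h by -3.66 ± 0.57 (SE, adjusted p = 2.85e-05). The nuclear receptor Nr4a3 differed by -3.55 ± 0.64, the pentraxin Ptx3 by -3.26 ± 0.49, the kinase Map3k6 by -2.61 ± 0.38 and heme oxygenase Hmox1 by -2.47 ± 0.42 (SE; adjusted p from 9.12e-06 for Map3k6 to 0.000169 for Nr4a3). At 24 h their changes were 0.72, 0.05, 0.10 and 0.07, none of them called. Pdk4, which restrains pyruvate oxidation, had 0.16 at 24 h and differed by -1.42 (adjusted p = 0.039).

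Agt and Lcn2 did not follow this pattern. Agt was 7.27, 7.69, 8.55 and 6.99 at 1, 2, 4 and 24 h after HCN (group means) and 5.84, 5.50, 5.91 and 5.35 in air, and its change at 24 h differed from that at 4 h by -0.99 ± 0.45 (SE, adjusted p = 0.14). The mean of Agt was above air at each time. The HCN arrays at 2 h had actin ratios of 1.49, 1.95, 0.79 and 0.64, which bears on all 2 h means given here. Lcn2 was 5.16, 6.11, 7.40 and 6.54 after HCN and 5.72, 5.40, 5.50 and 4.63 in air, with a difference between 24 and 4 h of 0.01 ± 0.46 (SE, adjusted p = 0.99). For Pnmt the HCN means were 3.84, 3.96, 4.68 and 4.76, and the difference was 0.22 ± 0.32 (SE, adjusted p = 0.72). None of these differences was called, which does not show that the effects are equal.

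Other genes changed at 24 h and differed from 4 h. Apol11b had HCN means of 2.69, 2.47, 2.57 and 3.46 at 1, 2, 4 and 24 h, and differed from 4 h by 0.87 and 1.01 on its probe sets. These probe sets passed the filter only through HCN at 24 h, so such a difference was favoured in advance. All the earlier means were below the background level of 3.23. The difference was 1.10 ± 0.20 for Chordc1 and 1.37 ± 0.34 for Sdf2l1 (SE; adjusted p = 0.000157 and 0.00472); both had lower means than air at 4 h. Igfbp5 differed by -1.01, the Cavin1 probe set of largest change, at -1.87 at 24 h and 0.79 at 4 h, by -2.66 and S1pr3 by -1.56. Ddit3, the transcription factor CHOP, differed by 0.97 ± 0.25 (SE, adjusted p = 0.00736), although its change at 24 h, 0.35, was not called.

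**Figure D5:**
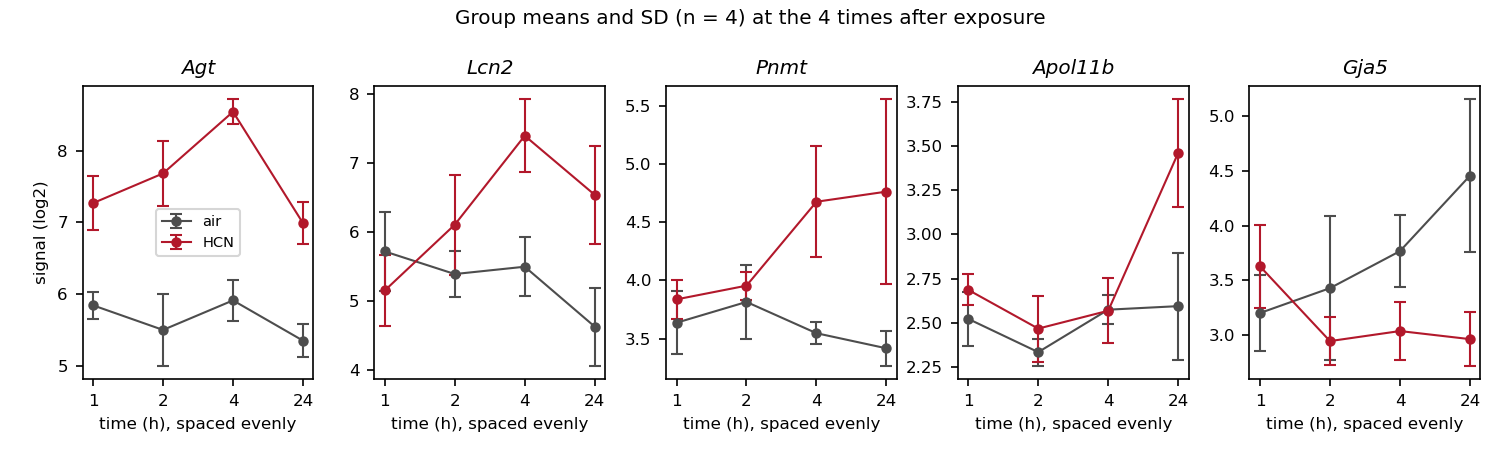
Mean log2 signal (error bars, SD; n = 4) of 5 genes in the air and HCN groups at 1, 2, 4 and 24 h. The HCN mean of Agt is above air at every time. That of Apol11b is 3.46 at 24 h and 2.47 to 2.69, below the background level of 3.23, at earlier times. The air mean of Gja5 is 4.46 at 24 h against 3.20 to 3.77 at the earlier times.

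The effect of inhaled HCN at 24 h was also compared with that of injected KCN against saline at the same time. Dose, route and vehicle all differ between these models, and the arrays of the routes appear to have been normalized as separate sets, so changes rather than levels were compared. They differed for 5037 probe sets (18.8%), 2166 positive and 2871 negative. Of these, 2462 were among the 3834 calls, which rest on the same HCN and air arrays. Lcn2 changed by 1.33 ± 0.46 more (SE, adjusted p = 0.0327) and Pnmt by 0.96 ± 0.32 more (SE, adjusted p = 0.027) after HCN than after KCN. For Agt the difference was 1.12 ± 0.45 (SE, adjusted p = 0.072), with means of 4.97 after KCN and 4.45 after saline. The difference was -1.59 for Gja5, whose KCN and saline means were 3.21 and 3.13, and -0.98 for Igfbp5.

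Lipe, Fasn and Scd1, all with roles in fat storage, were among the list genes with the largest negative differences. Lipe, hormone-sensitive lipase, fell by 1.03 (log2) after HCN, against a change of 1.85 after KCN, a difference of -2.88 ± 0.45 (SE, adjusted p = 4.78e-06). Fasn, the fatty acid synthase, had -1.11 ± 0.62 after HCN (SE, adjusted p = 0.25) and differed by -2.40 ± 0.88 (SE, adjusted p = 0.0457), and the desaturase Scd1 had -1.38 ± 0.58 (SE, adjusted p = 0.11) and differed by -2.25 ± 0.83 (SE, adjusted p = 0.0466). The log2 sum of 7 adipocyte markers ranged from 11.85 to 13.45 after HCN and from 12.68 to 13.53 in air, so that the groups overlapped. Of the 7, 1 was called lower, Lipe itself, so this call is not separate from the gene described. None of the 7 had a positive change. Their median was -0.15, and 0.19 without HCN replicate 4. The part of fat tissue in these genes was not tested. On the positive side, Chordc1 differed by 1.17, Tuba1c by 1.45, Plin5 by 0.80 and Apol11b by 0.95. For Apol11b, which passed the filter only through HCN at 24 h, a difference was favoured in advance. The actin ratio bears on this contrast too. At 24 h it was 0.783 to 1.00 in the saline arrays and 0.338 to 0.613 in the KCN arrays. It was thus lower after KCN than in its control, but higher after HCN than in its control. With the ratio as a covariate 808 probe sets differed, and with 3 within-gene factors 42 did. The differences from KCN given for single genes are without the covariate.

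The air group at 24 h itself differed from the 3 earlier air groups at 2698 probe sets (10.1%), and 875 of the 3834 HCN calls were among them. The air arrays at 24 h enter both comparisons, so such overlap is favoured in advance. Gja5 was 0.99 ± 0.18 higher in air at 24 h than in the earlier air groups (SE, adjusted p = 0.000215) and Igfbp5 0.69 ± 0.12 higher (adjusted p = 0.000101). Aqp7 was 1.40 higher on the probe set of largest change (adjusted p = 3.65e-05) and S1pr3 1.17 higher (adjusted p = 8.85e-08). Angpt1 had air means of 5.46, 6.06, 6.49 and 7.08 at 1, 2, 4 and 24 h, beside 5.42 after HCN at 24 h. Its fold at 24 h thus rests on the highest of the air groups. Lcn2 was 0.91 ± 0.27 lower there (SE, adjusted p = 0.0198) and Slc2a3 0.80 lower (adjusted p = 0.0292). For Agt and Pnmt the air difference was -0.40 (adjusted p = 0.35) and -0.25 (adjusted p = 0.42).

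Against the mean of all 4 air groups, HCN at 24 h differed at 6599 probe sets (24.6%), 3518 higher and 3081 lower. The excess of lower calls seen against air at 24 h was thus not found with this control. Of the 3834 calls, 2998 were called there in the same direction (78.2%). Agt had a change of 1.34, Lcn2 of 1.23, Gja5 of -0.75 and Igfbp5 of -0.53 in that fit. The Slc2a3 probe set described above had 0.55 and was no longer called (adjusted p = 0.091). Fam107a turned from 1.03 to -0.80. Agt, Lcn2, Pnmt, Gja5 and Igfbp5 were called in the same direction with either control. The HCN arrays are the same in both fits, and both controls hold the air arrays at 24 h. Such agreement, also the 78.2%, is thus in part built in.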

How the data were processed

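Hearts were profiled on Affymetrix HT MG-430 PM arrays, from 100 ng of total RNA (RNeasy Plus, 3' IVT kit), per the labels' protocols. The deposited values are log2 signals per probe set, made by the authors, whose processing notes name MAS5 with no version or role. The values ran from 1.83 to 13.94, and the log2 unit was read from them. Probe sets were tested if any group averaged over 3.23, the median of the group averages, without 104 AFFX controls. In R 4.3.3, limma 3.58.1 (trended eBayes, 51 residual and 5.53 prior degrees of freedom) fitted 18 group means on all 69 arrays, with the data.table package (1.17.8) for reading and matplotlib 3.10.9 for figures. All limma p-values are two-sided and Benjamini-Hochberg adjusted over all 26773 probe sets of a contrast (over genes where genes were refitted), called at 0.05, and "higher", "lower", "rose" and "fell" refer to such calls. RNA quality measures were compared by exact permutation tests. The scripts were tested on simulated data. The 8 arrays correlated at 0.983 to 0.995, and the number of arrays limits precision.

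Probe sets were named by the platform's gene symbols: 28898 carry 1 symbol, 551 several and 15588 none. Named genes were, in each direction, taken from the largest changes among genes with all of 2 or more probe sets called 1 way. Others came from the largest among called genes with 1 tested probe set and no overlap between the groups. Not every gene of these rankings is named: St7l (0.80) and Tmem69 (-0.97), for example, are not. Some genes with opposed calls, not only those of the widest gap, and members of the gene lists were named too. So were some of the largest differences from HCN at 4 h and KCN at 24 h, among list members and the first kind of gene. Other genes were named after their values were seen. The members and the lists were chosen with earlier results of these data known. Within-gene factors are singular vectors of the deviations of 12374 probe sets from their gene's mean, holding 20.5%, 13.2% and 5.34% of the variance. Alternatives changed the normalization, filter, control group, probe set rule, covariates and arrays included.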

Additional observations from a re-analysis of the deposited data

Results flagged for a closer look

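Of 152 groups of 4 arrays tested over the genes followed in detail, 11 had 1 array far from the other 3; chance gives about 1 in 20. HCN replicate 4 was the high one for Gna12 (6.43), Mpst (7.80), Prrc2c (8.01), Vamp3 (7.36) and Zfp146 (5.90), 5 genes that fell. HCN replicate 1 stood apart for Aqp7 (4.16) and Dkk3 (8.48), HCN replicate 2 for Polr3f (4.19), air replicate 1 for Polr3f (6.16) and Itgb3 (3.61), and air replicate 3 for Akt2 (8.55).

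The HCN effect at 24 h differed from that at 4 h (limma, adjusted p under 0.05) for 29 of the genes followed. These genes were followed because they were called at 24 h, and the contrast holds the same 24 h arrays. Differences are thus favoured in advance, and the count is no test of these genes. Over all tested probe sets 11.4% differed. The differences, 24 h minus 4 h on the log2 scale, were positive for Apol11b (0.87), Car2 (1.13), Chordc1 (1.10), Nrgn (1.61), Sdf2l1 (1.37), Sh3bgrl2 (1.61) and Zeb1 (0.52). They were negative for Cavin1 (-2.66), Sec61a1 (-2.54), Twsg1 (-2.17), Fam107a (-2.11), Ralgapa1 (-1.89), Nfia (-1.85), S1pr3 (-1.56), Lipe (-1.49), Vamp3 (-1.49), Gna12 (-1.43), Zfp146 (-1.39), Pecam1 (-1.33), Sirpa (-1.21), Prrc2c (-1.20), Ppara (-1.12), Osmr (-1.08), Igfbp5 (-1.01), Dkk3 (-0.94), Nes (-0.91), Epb41l2 (-0.88), Psmd7 (-0.70) and Mpst (-0.58).

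The HCN effect at 24 h likewise differed from the KCN effect at 24 h for genes chosen in the same way. Over all tested probe sets 18.8% did so. The differences, HCN minus KCN, were positive for Tuba1c (1.45), Lcn2 (1.33), Chordc1 (1.17), Pnmt (0.96), Apol11b (0.95), Mphosph8 (0.81), Plin5 (0.80), Sh3glb1 (0.76), Dnajb4 (0.70), Hspa5 (0.70), Zeb1 (0.61), Fhl1 (0.55), Hspa8 (0.48), Dnm1l (0.46), Cct3 (0.41) and Cct2 (0.26). They were negative for Sec61a1 (-3.43), Lipe (-2.88), Twsg1 (-2.33), Gna12 (-2.32), Cavin1 (-2.20), Zfp146 (-2.17), Sirpa (-1.96), S1pr3 (-1.94), Sod3 (-1.91), Vamp3 (-1.91), Ralgapa1 (-1.75), Nfia (-1.71), Csrp1 (-1.63), Gja5 (-1.59), Ppp5c (-1.53), Aqp7 (-1.49), Mpst (-1.46), Pecam1 (-1.43), Epb41l2 (-1.31), Angpt1 (-1.28), Csf1r (-1.21), Prrc2c (-1.19), Pkm (-1.14), Dkk3 (-1.08), Psmd7 (-1.0), Igfbp5 (-0.98), Nes (-0.98), Cpt1b (-0.96), Akt2 (-0.90), Pfkm (-0.86) and Cox15 (-0.84).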

How the results depend on the processing

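The count of 3834 calls was 3662 with quantile normalization, 3822 with median centring, 3225 with no filter and 3900 with a replicate block. The block changed none of the 73 named probe set results. Same-numbered arrays correlated at -0.127 to 0.077 once group means were removed, and other pairs at -0.252 to 0.192. Such correlations cannot show whether the numbers pair the mice, and the labels do not say. Counts moved by over 1.5 times with the mean of a gene's probe sets (1203), a refit on the brightest probe set per gene, adjusted over genes (1038), the actin covariate (733), 1, 2 and 3 within-gene factors (99, 124 and 160), the 4 air groups as control (6599), and a 1.5-fold minimum (1874). Leaving out 1 array gave 2533 (without HCN replicate 2) to 4789 (without HCN replicate 4). The share of calls that were higher, 35.5%, was 40.2% with quantile normalization and 38.3% with centring. It was 53.3% with the 4 air groups as control and 53.9% in the refit on the brightest probe set per gene. In the same order, counts of the difference from 4 h (3055) were 1261, 1247, 982, and 207, 221 and 108, with 2079 to 3953 on leaving out 1 array; those of the difference from KCN (5037) were 2050, 2101, 808, and 543, 158 and 42, with 4141 to 5690. Genes with all probe sets called 1 way (62) were 28 with no filter, 3 with the actin covariate, 1, 2 and 2 with 1 to 3 factors, 191 with the 4 air groups, and 25 (without HCN replicate 2) to 78 (without HCN replicate 4). The HCN-to-air difference in RNA quality on leaving out 1 array was 0.502 to 0.705 for actin, 0.202 to 0.263 for Gapdh and -0.391 to -0.287 for 18S; the exact permutation p was 0.0571 for actin and Gapdh without an air array and 0.0286 otherwise. Reversed with 1, 2 and 3 factors were Csrp1 (0.17, 0.14 and 0.14; second probe set 0.048, 0.027 and 0.047), Gna12 (0.28, 0.25 and 0.25), Mpst (0.0496, 0.044 and 0.0456), Pecam1 (0.57, 0.55 and 0.56), Pfkm (0.12, 0.11 and 0.11) and Ppp5c (0.40, 0.39 and 0.38; second probe set 0.13, 0.11 and 0.11). Dnm1l reversed as a gene mean (-0.85) and Fam107a against the 4 air groups (-0.80). The cause of these moves was not tested. Of the 73 named results, 31 kept their call with the actin covariate and 42 lost it without a change of direction; with 1 factor 14 kept it.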
